A study of Mus musculus with 10 samples.

Results

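The genes described here are the metabotropic glutamate receptor genes Grm2, Grm3, Grm4, Grm5, Grm7 and Grm8 and the scaffold gene Homer1, in single inspiratory neurons of the preBötzinger complex (preBötC), the brainstem site that generates the rhythm of inspiration. They were taken by name from a fixed list of 7 genes, out of 55367 genes in the deposited tables. All 7 were found there, and 6 had at least 1 fragment in at least 1 neuron. The 10 samples are 10 neurons from newborn mouse slices, patch-clamped and then emptied into the pipette, with 1 library each. The 4 Type-1 neurons (samples 4, 5, 6 and 7) were held by the study to be putative rhythm generators, the Type-2 neuron (sample 1) a putative pattern generator, and the 5 Unknown neurons (samples 2, 3, 8, 9 and 10) could not be classified. Samples 1, 5, 6 and 7 are Dbx1-derived neurons from Dbx1;Ai148 pups, in which Cre under the Dbx1 promoter switches on the calcium indicator GCaMP6f, and samples 2, 3, 4, 8, 9 and 10 are labelled WT and come from CD-1 pups without a reporter, so that their lineage is not known. Samples 1, 3, 5 and 8 were taken at P0, sample 10 at P1, samples 2 and 9 at P2 and samples 4, 6 and 7 at P3. No animal is named and each sample is 1 neuron, so no test was made between neurons, types or lines, and every comparison here is a description.

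Metabotropic glutamate receptors are G protein-coupled receptors for glutamate and fall into 3 groups. Group I, to which Grm5 belongs, couples to Gq proteins, phospholipase C and release of calcium from stores, and usually raises excitability. Group II (Grm2 and Grm3) and group III (Grm4, Grm6, Grm7 and Grm8) couple to Gi and Go proteins, and many of them sit on axon terminals, where they lower transmitter release. Homer1 encodes a postsynaptic scaffold protein that ties group I receptors to the calcium store and to Shank proteins; its short form, made after strong activity, lacks the coil through which the long forms join. In the preBötC, group I receptors are of interest because glutamate and calcium-activated inward current are thought to drive the inspiratory burst.

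The libraries held between 21392146 and 36629393 fragments counted on genes, and between 5055 and 9307 genes at 1 FPKM or more, where FPKM is fragments per kilobase of exons, scaled to 1000000 fragments per library. A count of 0 allows up to 3 fragments, which in these libraries is between 0.00799 and 0.0137 FPKM for Grm5 and between 0.0269 and 0.046 FPKM for the shorter Grm3. Such limits and the intervals below cover counting error only, since the reads carry no molecular identifiers. Samples 1, 2, 3, 4 and 9 had between 5055 and 6795 genes at that level and the other 5 between 8720 and 9307. Sample 4 went partly against its label as a neuron. Of the 8 neuron markers, 6 were at 1 FPKM or more there, as in sample 1. Their sum was 58.4 FPKM in sample 4 and 761 FPKM or more in the other 9 libraries. All 8 microglia markers were at 1 FPKM or more in sample 4 and summed to 15054 FPKM. Values from sample 4 are therefore those of a library labelled Type-1.

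Of the 70 combinations of a member and a neuron, 27 were at 1 FPKM or more. Over the 6 members with a fragment this is 27 of 60, or 45%, where 35.1% of all such combinations reached that level among the 21231 genes with a fragment. Without sample 4 the count was 26 of 63, and without samples 1 to 4 it was 19 of 42. Both of these counts include Grm2, and no share over all genes was computed for them. The 35.1% holds for all 10 neurons and is not their background. Grm5 reached 1 FPKM in 6 neurons, Grm7 and Homer1 in 5 each, Grm3 and Grm4 in 4 each, Grm8 in 3 and Grm2 in 0. No neuron held more than 4 of the 6 receptor genes at that level: samples 3, 6 and 8 held 4, samples 7 and 10 held 3, sample 1 held 2, samples 4 and 9 held 1, and samples 2 and 5 held 0.

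**Figure D1:**
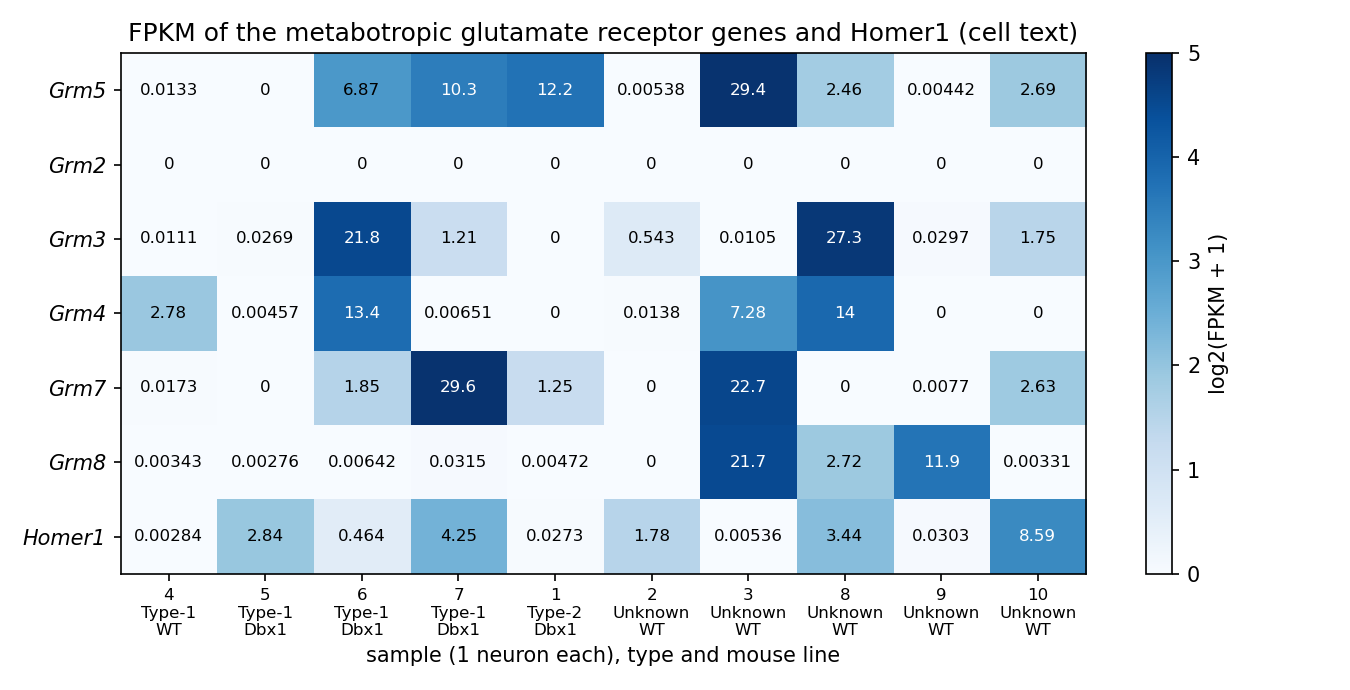
Deposited FPKM of each gene (rows) in each neuron (columns, grouped by type, with the mouse line under the sample number); the shade is log2(FPKM + 1) and the number in a cell is the FPKM. Grm2 is at 0 in all 10 neurons, and each of the other 6 genes is at 1 FPKM or more in between 3 and 6 neurons.

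The receptor genes together differed widely between neurons. The FPKM of the 6 receptor genes summed to 81.2 in sample 3, 46.6 in sample 8, 44.0 in sample 6, 41.2 in sample 7, 13.5 in sample 1, 11.9 in sample 9, 7.07 in sample 10, 2.82 in sample 4, 0.562 in sample 2 and 0.0342 in sample 5, with a median of 12.7. Sample 5 is a Dbx1-derived Type-1 neuron with the deepest library, 8 of 8 neuron markers and 9223 genes at 1 FPKM or more, yet only 5 fragments fell on the 6 receptor genes. The other Dbx1-derived Type-1 neurons, samples 6 and 7, had 7177 and 7305 fragments on them. As TPM, which scales the summed level of all genes to the same total, the order of samples 6, 7 and 8 turned, with 132, 118 and 113 TPM, and the order of the other 7 neurons was kept.

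**Figure D2:**
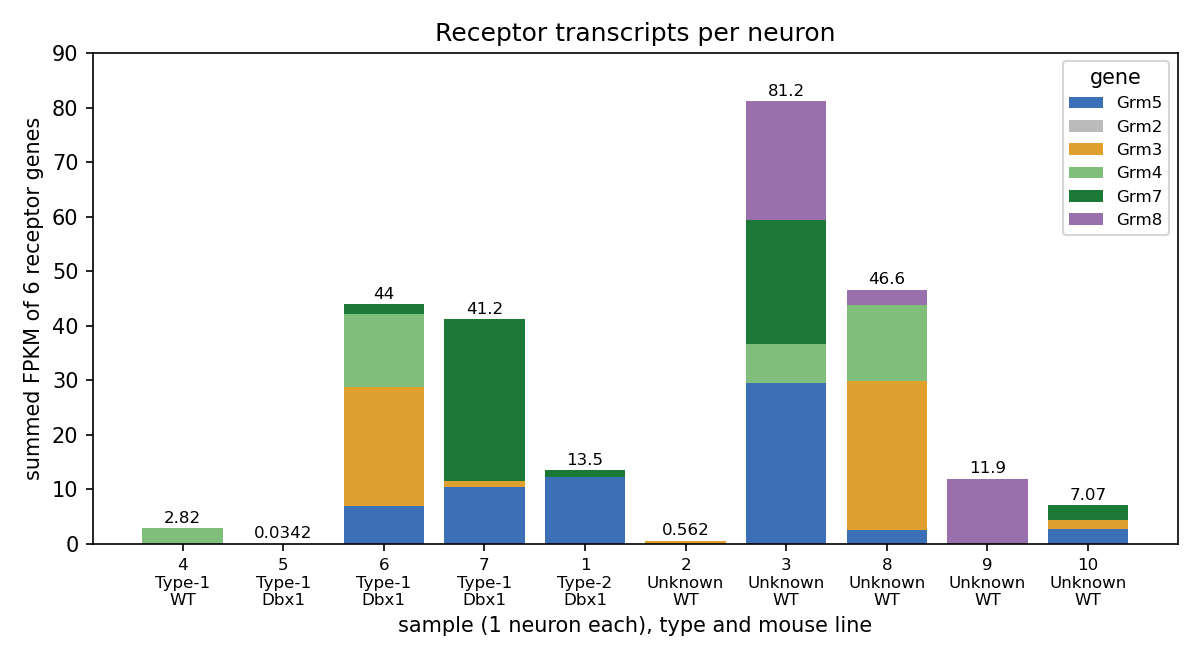
Summed FPKM of the 6 receptor genes in each neuron (bars, stacked by gene; the number above a bar is the sum); columns are grouped by type, with the mouse line under the sample number. The bar of sample 3 is made of 4 genes, that of sample 7 mainly of Grm7, that of sample 9 nearly all of Grm8, and samples 2 and 5 have almost none.

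The make-up of these sums also differed. The group I gene Grm5 made up 90.6% of the sum in sample 1, 38% in sample 10, 36.2% in sample 3, 25.1% in sample 7, 15.6% in sample 6 and 5.29% in sample 8. The group II gene Grm3 made up 58.7% in sample 8 and 49.7% in sample 6. Group III genes made up 99.7% in sample 9, 99.1% in sample 4, 72% in sample 7 and 63.8% in sample 3. Sample 10 was the most even, with 38%, 24.8% and 37.3% from groups I, II and III. These shares depend on gene length: per 1000000 fragments without a length, Grm4 and not Grm3 was the highest receptor gene in samples 6 and 8, while the highest receptor gene was the same in the other 8 neurons.

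Grm5 encodes the group I receptor of the set and lies on chromosome 7 (87584168 to 88134907 on the plus strand of GRCm38, ENSMUSG00000049583), with 10247 bases of exons. It was at 29.4 FPKM in sample 3, 12.2 in sample 1, 10.3 in sample 7, 6.87 in sample 6, 2.69 in sample 10, 2.46 in sample 8, 0.0133 in sample 4, 0.00538 in sample 2, 0.00442 in sample 9 and 0 in sample 5. The values parted into 6 neurons at 2.46 FPKM or more, from 670 to 9388 fragments, and 4 neurons with at most 4 fragments. In the order of levels, only samples 10 and 8 had overlapping exact 95% Poisson intervals among the 6 higher neurons (2.51 to 2.87 and 2.28 to 2.66 FPKM). In sample 3, Grm5 lay above 77.8% of the genes with a fragment in that neuron, and in sample 10 above 34.3%. Sample 3 held 8 of 8 neuron markers at 1 FPKM or more, summing to 1707 FPKM. It also had the highest sums of the 10 libraries for astrocyte markers, 6392 FPKM, and oligodendrocyte lineage markers, 337 FPKM. The part of glial RNA in its Grm5 value was not tested. The higher neurons differed in their transmitter genes. Gad1 and Gad2, whose products make GABA, were at 71.8 and 43.5 FPKM in sample 1, 37.2 and 22.9 in sample 3, and 92 and 34.2 in sample 10. In these neurons the vesicular transporter Slc32a1 was at 0.0167, 0 and 0.375 FPKM and the glycine transporter Slc6a5 at 146, 0.0401 and 8.60 FPKM. Slc17a6, the vesicular glutamate transporter, was at 158, 156 and 230 FPKM in samples 6, 7 and 8. Of the 4 inhibitory markers, sample 8 held Gad1 alone at 1 FPKM or more (8.28), sample 7 Gad2 alone (5.14) and sample 6 none. Sample 5, with Slc17a6 at 101 FPKM, had no Grm5 fragment.

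Introns of Grm5 hold short unclassified genes of the annotation on the same strand, and some of these had fragments of their own. Gm44848 had 2084 fragments in sample 1, at 30.1 FPKM, against 2673 for Grm5 itself, and at most 1 fragment in each other neuron. Gm44927 had 124 fragments in sample 10 and Gm44847 had 44 in sample 6. Each of these was seen in a neuron that also held Grm5. Whether such fragments come from unspliced Grm5 RNA was not tested.

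Of the group II genes, Grm2 (chromosome 9, 106643095 to 106656082 on the minus strand, ENSMUSG00000023192, 4894 bases of exons) had 0 fragments in all 10 neurons, so that up to between 0.0167 and 0.0287 FPKM per library would go unseen. Grm3 (chromosome 5, 9485541 to 9725170 on the minus strand, ENSMUSG00000003974, 3049 bases of exons) was at 27.3 FPKM in sample 8, 21.8 in sample 6, 1.75 in sample 10, 1.21 in sample 7, 0.543 in sample 2, 0.0297 in sample 9, 0.0269 in sample 5, 0.0111 in sample 4, 0.0105 in sample 3 and 0 in sample 1. An Unknown and a Type-1 neuron were thus far above the rest, and their intervals did not overlap (26.2 to 28.5 and 20.9 to 22.8 FPKM). The values of samples 10 and 7 rest on 163 and 95 fragments and that of sample 2 on 60, and the intervals of samples 10 and 7 came close without overlapping (1.49 to 2.04 and 0.982 to 1.48 FPKM). Gm42455, an unclassified gene within an intron of Grm3, had 104 fragments in sample 7.

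Grm3 is also a gene of astrocytes, so the astrocyte markers stand beside it. In sample 8, 9 of the 10 markers were at 1 FPKM or more and summed to 2211 FPKM. In sample 6, 2 of the 10 were, Aldoc and Apoe, the sum of 151 FPKM was the lowest of the 10 libraries, and Gfap, Aldh1l1, Gja1, Fgfr3 and Sox9 were at 0. Over the 10 libraries the list summed to between 151 and 6392 FPKM, with 7 of 10 markers at 1 FPKM or more in samples 2 and 3, and Grm3 was at 0.543 and 0.0105 FPKM there. The part of astrocyte RNA in the Grm3 value of sample 8 was not tested. The same library held 4 of 8 markers of the oligodendrocyte lineage, with Olig1 at 98 FPKM, Cspg4 at 4.71 and Olig2 at 0.0298.

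The group III genes Grm4, Grm7 and Grm8 encode receptors found mainly at presynaptic sites. Grm4 (chromosome 17, 27422387 to 27521403 on the minus strand, ENSMUSG00000063239, 5977 bases of exons) was at 14.0 FPKM in sample 8, 13.4 in sample 6, 7.28 in sample 3 and 2.78 in sample 4, at 0.0138, 0.00651 and 0.00457 in samples 2, 7 and 5, and at 0 in samples 1, 9 and 10. Samples 8 and 6 had overlapping intervals (13.5 to 14.6 and 12.9 to 13.9 FPKM). Grm4 was the only member at 1 FPKM or more in sample 4, with 489 fragments. The microglia markers summed to 15054 FPKM there and to 495, 75.2 and 370 FPKM in samples 8, 6 and 3, the other neurons with Grm4, with 8, 7, 3 and 4 of the 8 markers at 1 FPKM or more. Sample 2 held 7 of 8, at 1931 FPKM, with 3 fragments of Grm4. Their part in the Grm4 values was not tested.

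Grm7 (chromosome 6, 110645581 to 111567230 on the plus strand, ENSMUSG00000056755, 5886 bases of exons) was at 29.6 FPKM in sample 7, 22.7 in sample 3, 2.63 in sample 10, 1.85 in sample 6 and 1.25 in sample 1, at 0.0173 in sample 4 and 0.0077 in sample 9, and at 0 in samples 2, 5 and 8. A Type-1 and an Unknown neuron were far above the rest, and no intervals overlapped among the 5 higher neurons. The antisense gene Gm20387 shares exon bases with Grm7 and had 709 fragments in sample 3 and 406 in sample 10, against 4171 and 473 for Grm7, and at most 1 elsewhere. The counting was not stated to use strand. Part of the fragments on the shared bases may thus be assigned to the wrong gene of the pair, or to neither, in samples 3 and 10. Gm20387 had 0 fragments in samples 6 and 7. The pseudogene Gm20386, in an intron of Grm7, had 61 fragments in sample 1.

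Grm8 lies on the same chromosome (chromosome 6, 27275119 to 28135178 on the minus strand, ENSMUSG00000024211, 9898 bases of exons). It was at 21.7 FPKM in sample 3, 11.9 in sample 9, 2.72 in sample 8, 0.0315 in sample 7, 0.00642 in sample 6, 0.00472 in sample 1, 0.00343 in sample 4, 0.00331 in sample 10 and 0.00276 in sample 5, and at 0 in sample 2. The 7 lower neurons had at most 8 fragments each. The 3 neurons at 1 FPKM or more are all Unknown neurons from CD-1 mice, and the other 2 Unknown neurons, samples 2 and 10, had 0 and 1 fragment. In sample 9 it was the only member at that level and took 2596 of the 2600 receptor fragments. Sample 10 had 238 fragments on Gm42801, an unclassified gene inside a Grm8 intron, beside the 1 fragment on Grm8.

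Homer1 (chromosome 13, 93299635 to 93405129 on the plus strand, ENSMUSG00000007617, 11976 bases of exons) had a fragment in every neuron. It was at 8.59 FPKM in sample 10, 4.25 in sample 7, 3.44 in sample 8, 2.84 in sample 5, 1.78 in sample 2, 0.464 in sample 6, 0.0303 in sample 9, 0.0273 in sample 1, 0.00536 in sample 3 and 0.00284 in sample 4. The intervals of the 6 highest neurons did not overlap. The counts are per gene, so the short and long forms of Homer1 were not told apart.

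The members were either well covered or nearly absent in a neuron. The lowest count at 1 FPKM or more was 95, which was the Grm3 value of sample 7. Of the 43 combinations below 1 FPKM, 19 had 0 fragments, 22 had between 1 and 8 fragments, and 2 lay between, namely Grm3 in sample 2 with 60 and Homer1 in sample 6 with 175. The limit of 8 was placed in this gap after the values were seen. The 22 low values were between 0.00276 and 0.0315 FPKM and at most 0.255% of the count of the same gene in its highest library, with a median of 0.0411%.

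**Figure D3:**
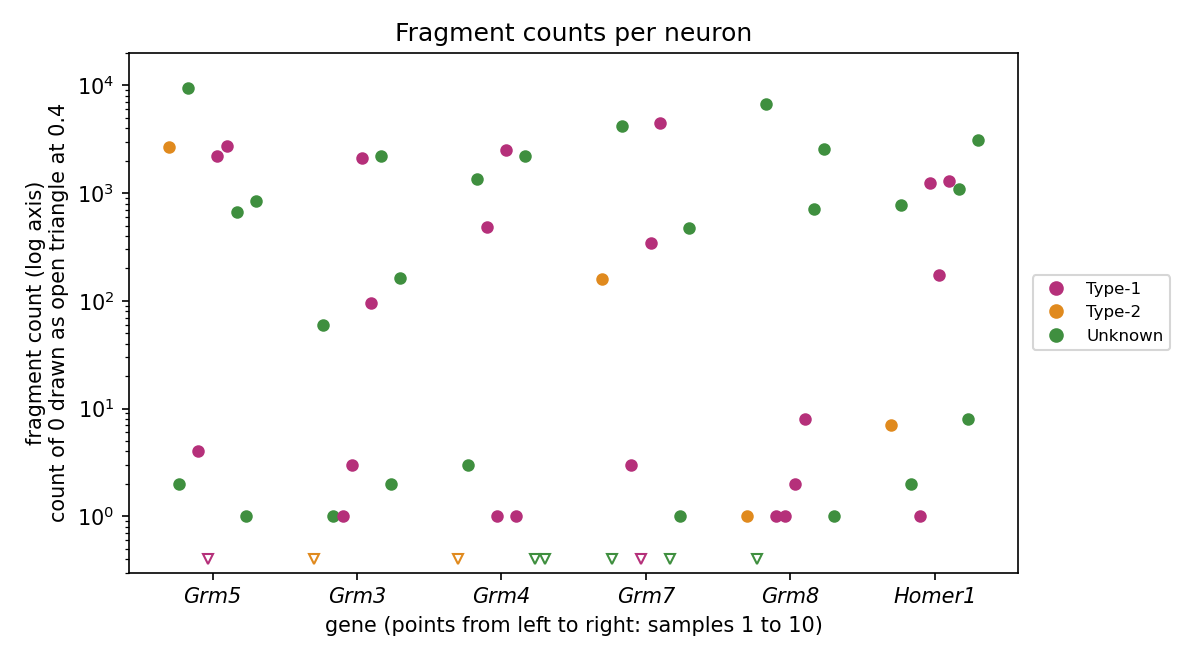
Fragment counts on a log axis for the 6 genes with a fragment, with samples 1 to 10 from left to right within each gene, colour for the type, and counts of 0 drawn as open triangles at 0.4. Few points lie between 8 and 95 fragments: the Grm3 count of 60 in sample 2 is the 1 point there.

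Low counts of this size were also found for other genes that were high in a single library. Over 790 genes nearly private to 1 library (1000 fragments or more there, and no other library over 2% of that count), each library had between 0 and 0.158% of the fragments that such genes had in another, with a median of 0.0116% over the 90 ordered pairs. Applied to the members, these rates gave 63.2 fragments over the 22 low values, where 55 were counted, and 11.9 over the 19 zeros. For the 60 Grm3 fragments of sample 2 and the 175 Homer1 fragments of sample 6 the rates gave 1.67 and 0.844. At 1 FPKM or more the largest such number was 12.7, for Grm5 in sample 7, where 2723 were counted. The limits of this calculation were chosen with earlier results known, and the origin of single fragments was not tested.

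Which members met in a neuron differed from pair to pair. Grm5 and Grm7 were both at 1 FPKM or more in 5 neurons (samples 1, 3, 6, 7 and 10), which are all 5 neurons with Grm7 and 5 of the 6 with Grm5. Over the 10 neurons, log2(FPKM + 1) of the pair correlated with Pearson's r = 0.81 and Spearman's rho = 0.79. The r was 0.82 without samples 1 and 3, the farthest from the median of Grm5, and 0.80 over samples 5 to 10. Neurons were left out for this pair alone, which had the highest r of the 15. Samples 5 and 9, with at most 1 fragment of either gene, were kept each time. Whether the levels go together where both genes are present was thus not tested. All 4 neurons with Grm3 at 1 FPKM or more also held Grm5, with r = 0.16 between the levels: sample 8 had the highest Grm3 and the lowest Grm5 of these. Homer1 and its partner Grm5 were both at 1 FPKM or more in 3 neurons (samples 7, 8 and 10), with r = -0.11 over the 10. Homer1 was at 0.0273 and 0.00536 FPKM in samples 1 and 3, which had the highest levels of Grm5, and at 2.84 and 1.78 FPKM in samples 5 and 2, which had 0 and 2 Grm5 fragments. Samples 1 and 3 also had the fewest genes at 1 FPKM or more, 5065 and 5055, while samples 5 and 2 had 9223 and 5623. Of the other pairs, Grm3 and Grm4 had r = 0.69 and rho = 0.37, with both at 1 FPKM or more in samples 6 and 8, and Grm3 and Homer1 had r = 0.31 and rho = 0.72. The other 10 pairs had r between -0.40 and 0.33. These coefficients describe 10 points that were sequenced together and differ in depth and in how many genes were detected, and 15 pairs were looked at. Spearman's rho also ranks the values of 8 fragments or fewer, so it rests in part on the order of these low counts.

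**Figure D4:**
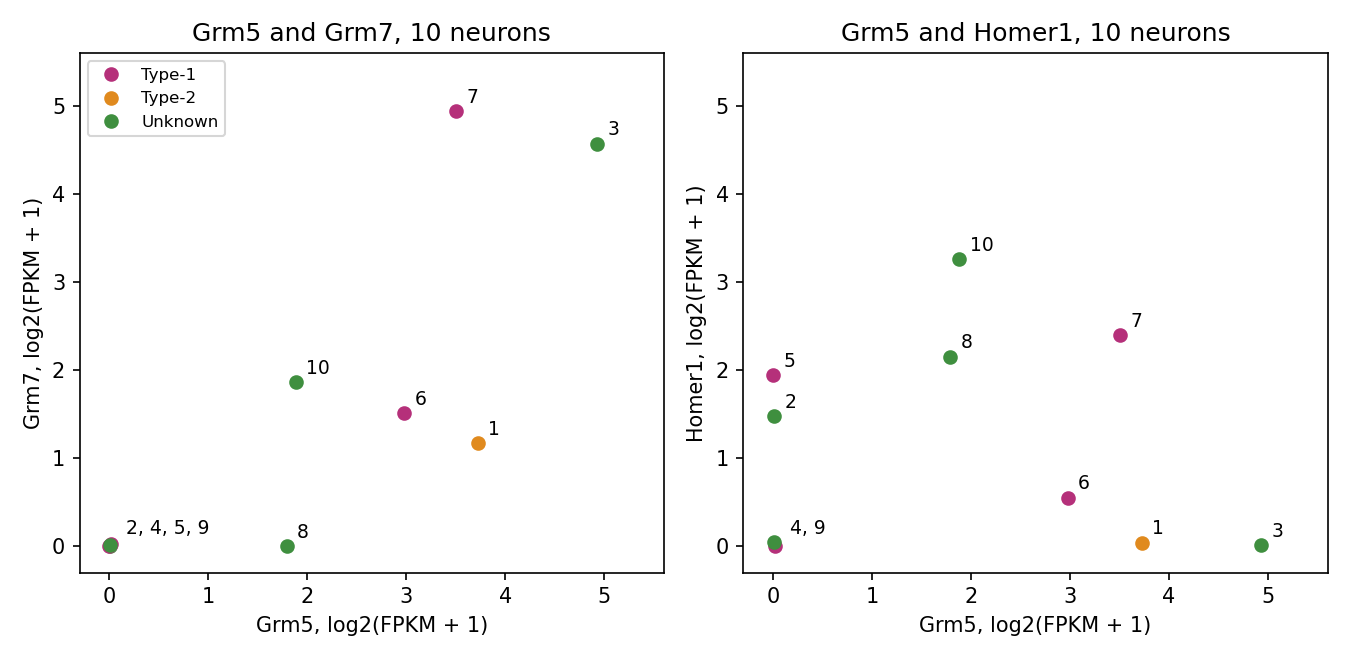
Levels of Grm5 against Grm7 (left) and against Homer1 (right) as log2(FPKM + 1), 1 point per neuron, numbered by sample and coloured by type. On the left the 5 neurons with Grm7 lie to the right with Grm5, and samples 2, 4, 5 and 9 sit at the origin; on the right, samples 1 and 3 have high Grm5 and almost no Homer1, and samples 2 and 5 the reverse.

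The study's factors are the type and the Dbx1 lineage. With 1 Type-2 neuron, the Type-1 neurons were set here against the Unknown neurons, which is not a contrast of the study, and the Dbx1-derived against the CD-1 neurons. These splits overlap, since 3 of the 4 Type-1 neurons are Dbx1-derived and all Unknown neurons are from CD-1 mice. In 0 of the 6 members with a fragment were all values of the Type-1 neurons on 1 side of those of the Unknown neurons, where 0.782% of 20979 genes were. The same held for 0 of 6 members between the 4 Dbx1-derived and the 6 CD-1 neurons, where 1.46% of 21231 genes did not overlap. Both counts were also 0 without samples 1 to 4, in a contrast of samples 5 to 7 with samples 8 to 10 where 7.22% of genes did not overlap. The mean log2(FPKM + 1) of Grm5 was 1.62 ± 1.88 (SD, n = 4 neurons) in Type-1 and 1.72 ± 2.01 (SD, n = 5 neurons) in Unknown neurons, and the differences for Grm3, Grm4, Grm7 and Homer1 were likewise 0.33 or less in size, against SDs of 1.13 or more. Leaving out each neuron in turn moved the Grm5 difference (Type-1 minus Unknown) from -0.72 to 0.70, and the differences of the other 4 also took both signs. Grm8 had the widest difference, with 0.02 ± 0.02 (SD, n = 4 neurons) in Type-1 and 2.02 ± 2.07 (SD, n = 5 neurons) in Unknown neurons, and the difference stayed between -2.51 and -1.38 with each neuron left out in turn. The spread in the Unknown neurons was as large as the difference.

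The Type-2 neuron, sample 1, held Grm5 at 12.2 FPKM and Grm7 at 1.25 FPKM, with 158 fragments, and no other member at 1 FPKM or more. Its Grm5 was above the Type-1 range of 0 to 10.3 FPKM and within the Unknown range of 0.00442 to 29.4 FPKM, and its Grm7 was within both ranges (0 to 29.6 and 0 to 22.7 FPKM). By age, the summed receptor level was between 0.0342 and 81.2 FPKM at P0, the whole range of the set, between 0.562 and 11.9 FPKM at P2 and between 2.82 and 44.0 FPKM at P3. At P2, where both neurons are Unknown, Grm5, Grm3, Grm4 and Grm7 were below 1 FPKM in both.

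Other genes of the receptor and Homer families were present in few neurons or none. Grm6, the group III gene known from bipolar cells of the retina, had 0 fragments in all 10 neurons. Homer2 was at 8.69 FPKM in sample 3, where Homer1 was at 0.00536, at 1.54 FPKM in sample 10, 1.36 in sample 9 and 0.173 in sample 8. Sample 1, a library with 5065 genes at 1 FPKM or more, thus had Grm5 at 12.2 FPKM with Homer1 and Homer2 at 0.0273 and 0.0111 FPKM. Homer3 had 16 fragments in sample 4 and 0 in the other 9 neurons. It shares exon bases with Ddx49 on the opposite strand, which had 445 fragments in sample 4 and 2414 in sample 9, where Homer3 had 0.

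Genes for the proteins that these receptors act through were present in every neuron, in differing numbers. Of 15 genes listed for group I coupling, between 4 and 11 were at 1 FPKM or more in a neuron, with a median of 8.5, and 4 of the 15 were so in 9 neurons or all 10, namely Gna11, Plcb4, Shank1 and Ncdn. Ncdn, whose product binds group I receptors, had the highest median of the list, 63.8 FPKM. Itpr1, the calcium store channel that Homer proteins bind, was at 4.89 FPKM in sample 1, 1.75 in sample 7, 1.16 in sample 8 and 1.10 in sample 6, while it did not pass 0.00301 FPKM in the remaining 6. These 4 neurons held Grm5, but so did samples 3 and 10, where Itpr1 was at 0. Shank3, which Homer proteins also bind, was at 13.5 FPKM in sample 1, 4.89 in sample 8, 1.99 in sample 6 and 1.65 in sample 10, at 0.958 and 0.911 in samples 5 and 2, which lacked Grm5, and at 0.0211 and 0.00695 in samples 7 and 3, which held it.

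Of 15 genes listed for group II and III coupling, between 4 and 11 were at 1 FPKM or more in a neuron, and Gnai2, Gnao1 and Gnaz were so in 9. Gnai1, an inhibitory G protein subunit, had the highest median, 72.5 FPKM. Pick1, which binds the tail of the receptor encoded by Grm7, was at 1.77, 5.88, 4.63 and 17.9 FPKM in samples 7, 10, 6 and 1 but at 0.00488 FPKM in sample 3, where Grm7 was at 22.7. It was also at 8.23, 2.77 and 3.91 FPKM in samples 2, 5 and 8, which had no Grm7 fragment. Elfn1, whose product recruits group III receptors across the synapse, was at 1 FPKM or more in samples 6 and 8 alone, at 4.45 and 3.65 FPKM. Adcy6 and Adcy9 were below 1 FPKM in all 10. Sample 5 held 8 and 9 genes of the 2 coupling lists at 1 FPKM or more while it held no receptor of the set, and in sample 4 both lists were at 4.

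Of the 5 Slc1 family genes listed for glutamate uptake, between 1 and 4 were at 1 FPKM or more in a neuron. Slc1a4, whose product carries neutral amino acids rather than glutamate, had the highest median, 3.17 FPKM. The median of Slc1a1 was next, at 2.89 FPKM. The neuronal transporter Slc1a1 reached 1 FPKM in 6 neurons and Slc1a6 in 5. The glial transporter genes Slc1a2 and Slc1a3 are also in the astrocyte list, and both were at 1 FPKM or more in samples 3 and 8.

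Set beside the whole series, the members were ordinary in their unevenness. Among the 16546 genes that reached 1 FPKM in some neuron, the median gene reached that level in 4 neurons and took 48.7% of its summed FPKM from 1 neuron. The 6 members with a fragment had medians of 4.5 neurons and 48.5%, and 3 of them (Grm3, Grm7 and Grm8) took over 50% from 1 neuron, with 51.8%, 51% and 59.8%. Of the 16546 genes, a share of 48.5% likewise took over 50% from 1 neuron. This is a description, with no test of a difference.

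The genes most like each member over the 10 neurons were sought among the 10420 genes that reached 1 FPKM in 3 or more neurons, by Pearson's r of log2(FPKM + 1). For Grm5 they were Myc (0.96), Fhod3 (0.91) and Mier2 (0.90), and for Grm7 Sesn3 (0.92), Galnt14 (0.92) and Akap12 (0.91). For Grm3 they were Gm44242 (0.97), Mgat5 (0.95) and Cbx7 (0.95), for Grm4 Elmod3 (0.96), Slc2a1 (0.96) and Rnf121 (0.93), for Grm8 Gm13629 (0.99), C1qtnf6 (0.96) and Rnls (0.95), and for Homer1 Fam222b (0.97), Urgcp (0.97) and Myl12b (0.95). They are the highest of many coefficients over 10 points, set by the few neurons in which both genes were present. No member of the set was among the 3 genes nearest to another.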

How the data were processed

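Single preBötC neurons of mice aged P0 to P3 were patch-clamped, their contents amplified with SMART-Seq v4, and 10 libraries sequenced, 1 per neuron. The authors trimmed the reads, aligned them with STAR 2.7.7a to GRCm38 and deposited raw fragment counts per gene from featureCounts, without normalization. The deposited FPKM values equal the counts divided by the deposited gene length in kilobases and by the column total over 1000000, to within rounding. How fragments with several matches, overlapping genes or strand were treated is not given in the sources used here. The RNA is amplified from 1 cell, so a low or zero count can also be a molecule lost before sequencing.

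Samples were grouped by the labels' types and mouse lines. Figure legends of the study give samples 1 to 6 as CD-1 and 7 to 10 as Dbx1;Ai148, against the labels used here. FPKM was used as deposited, with 1 FPKM as the level for presence and log2(FPKM + 1) for summaries. No test was made between groups, and Dixon's criterion was applied within them. The members and gene lists were chosen with earlier results of these data known. Named genes were the members, Grm6, Homer2 and Homer3, per list the gene with the highest median and genes at 0, and the 3 most alike genes for each member. Itpr1, Shank3, Pick1, Elfn1, genes present in at least 9 neurons or in none, and genes overlapping members were named after their values were seen. Some listed genes are not reported here. Positions are from GENCODE M21, whose exon bases equal the deposited lengths of the members. Exact 95% Poisson intervals are for counting error. The non-overlap counts and the rates between libraries were tested on simulated data; the rates left out the 5% of private genes with the highest shares. Alternatives were other levels, TPM, thinning, CPM and leaving out neurons, among them samples 1 to 4, which the study describes as having many lowly expressed genes. Values were computed in Python 3.11.15 with pandas 2.3.3 and NumPy 2.4.6, intervals with SciPy 1.17.1, and plots with Matplotlib 3.10.9.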

Additional observations from a re-analysis of the deposited data

Results flagged for a closer look

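Of 13 groups of values examined (log2(FPKM + 1) of the members and of the summed receptor level, within the Type-1 and within the Unknown neurons, where at least 1 neuron reached 1 FPKM), Dixon's criterion marked 0 for a single distant neuron. It marks about 1 in 20 groups by chance. The Type-2 neuron is alone in its group and could not be examined in this way.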

How the results depend on the processing

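The 27 combinations at 1 FPKM or more became 29 at 0.1 FPKM, 29 at 1 TPM, 27 after thinning to the smallest library, 27 with counts up to 0.1% of the highest library set to 0, and 14 at 5 FPKM. At that last level Grm3 and Grm7 were each present in 2 neurons and Homer1 in 1. A further 3 settings were chosen after seeing the data: without sample 4 and without samples 1 to 4, which gave 26 of 63 and 19 of 42, and at least 10 fragments per 1000000 without gene length, which gave 24. No share over all genes was computed for these alternative settings, so their counts have no background beside them. The median summed receptor level of 12.7 FPKM was 31.9 as TPM and 125 as fragments per 1000000, which are other units. The count of members not overlapping between types or lines was 0 under each alternative, leaving out each neuron in turn included. Shares over all genes stand only beside the main counts (0.782% and 1.46%) and those without samples 1 to 4 (7.22%). The other zeros have no background beside them. With shares this low and 6 members, a count of 0 says little about the members. Of 60 alternative values for the difference between types in a member, 59 moved by less than 1 SD between neurons. The exception was Grm8 at -3.76 with a pseudocount of 0.1 in place of 1. This SD was between 1.29 and 2.15, while the main differences other than that of Grm8 were 0.33 or less in size. A difference could thus turn its sign within 1 SD, as those of Grm5, Grm3, Grm4, Grm7 and Homer1 did. The count of 59 therefore does not show that the differences were stable. No paired analysis was possible because the labels give no animal and no number shared between groups. The limits are that each library is 1 neuron, that presence rests on amplified RNA, and that type and mouse line cannot be told apart for most neurons.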
